A study of Rattus norvegicus with 23 samples.

Results

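Chemokine ligands were followed through hearts and kidneys of rats after kidney and vascular surgery. The 10 genes were Cxcl6, Cxcl9, Cxcl10, Cxcl12, Cxcl13, Cxcl16, Ccl2, Ccl5, Ccl19 and Cx3cl1, chosen by name from the 32552 gene identifiers counted in each library, and all 10 were matched. The rats were Sprague-Dawley, 13 weeks old, and organs were taken 4 weeks after the operation. Sham rats had sham surgery. NX rats had a 5/6 partial nephrectomy, a standard model of chronic kidney disease. AVF+NX rats had the same nephrectomy together with an arteriovenous fistula that joined the jugular vein end-to-side onto the carotid artery. Heart Sham held 3 libraries, and the other 5 groups of organ and surgery (Heart NX, Heart AVF+NX, Kidney Sham, Kidney NX and Kidney AVF+NX) held 4 each. No group had the fistula without nephrectomy, and hearts and kidneys of 1 rat are not linked in the labels.

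Chemokines are small secreted proteins that bind receptors on white blood cells and draw them into tissue along a gradient. Inflammatory chemokines are made on demand by tissue cells and macrophages after cytokine signals such as interferon gamma, tumour necrosis factor and interleukin 1, whereas homeostatic chemokines place lymphocytes inside lymphoid tissue. Cxcl9 and Cxcl10 act on Cxcr3 of activated T cells, Cxcl13 on Cxcr5 of B cells, Ccl19 on Ccr7 of T cells and dendritic cells, Ccl2 on Ccr2 of monocytes and Ccl5 on Ccr1 and Ccr3, among others. Cxcl6 attracts neutrophils through Cxcr2. Cxcl12 acts on Cxcr4 and is bound by the scavenger Ackr3, while Cxcl16 and Cx3cl1 are made as membrane proteins with a chemokine head, read by Cxcr6 and Cx3cr1, that ADAM proteases can release.

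In the coordinates of the files, whose genome build is not given in the sources used here, 4 of the genes lie on chromosome 14. They are Cxcl13 (14, 15253125 to 15258207, minus strand), Cxcl10 (17210733 to 17212930, plus strand), Cxcl9 (17228856 to 17234712, plus strand) and Cxcl6 (18860264 to 18862407, minus strand). Chromosome 10 holds Cxcl16 (57060007 to 57064600), Ccl2 (69412017 to 69413870) and Ccl5 (70739800 to 70744315). Ccl19 lies on chromosome 5 (58181026 to 58183017), Cxcl12 on chromosome 4 (149261044 to 149273891) and Cx3cl1 on chromosome 19 (10644244 to 10653800). Cxcl10 overlaps the Art3 gene and Cxcl16 overlaps Zmynd15, each on the opposite strand, and the strand setting of the counting is not given, so the values of these ligands are uncertain where the neighbour is expressed.

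Promoter sequences (RefSeq, build GRCr8) were matched for 8 of the 10 genes, all but Ccl2 and Ccl5, and the 250 bases before the gene start were searched on both strands. The motifs were the interferon-stimulated response element core (GAAA, any 2 bases, GAAA), the interferon gamma activated site core TTCNNNGAA and the NF-kappa B consensus. Of 33469 promoters of the same length, 3.41% held the first, 7.67% the second and 6.33% the third. The 4 promoters below, chosen after the values were seen, belong to the 3 ligands that were called in AVF+NX kidneys against both Sham and NX and to Cxcl6, which had 0 counts in sham kidneys; capitals mark motif matches, and each is written 5′ to 3′ on the strand of its gene. Cxcl9 is at chr14:16006916-16007165 (plus strand), Cxcl10 at chr14:15988816-15989065 (plus), Ccl19 at chr5:61761165-61761414 (minus) and Cxcl6 at chr14:17596418-17596667 (minus).
Cxcl9: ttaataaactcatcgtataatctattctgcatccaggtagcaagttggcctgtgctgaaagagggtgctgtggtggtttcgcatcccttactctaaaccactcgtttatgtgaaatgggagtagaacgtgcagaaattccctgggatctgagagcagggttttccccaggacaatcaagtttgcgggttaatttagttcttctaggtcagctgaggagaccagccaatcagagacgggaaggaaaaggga
Cxcl10: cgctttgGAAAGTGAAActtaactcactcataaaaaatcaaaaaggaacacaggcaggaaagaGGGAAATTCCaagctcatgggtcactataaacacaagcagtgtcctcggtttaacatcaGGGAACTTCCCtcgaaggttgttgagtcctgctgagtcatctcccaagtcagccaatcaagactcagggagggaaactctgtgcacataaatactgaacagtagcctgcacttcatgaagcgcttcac
Ccl19: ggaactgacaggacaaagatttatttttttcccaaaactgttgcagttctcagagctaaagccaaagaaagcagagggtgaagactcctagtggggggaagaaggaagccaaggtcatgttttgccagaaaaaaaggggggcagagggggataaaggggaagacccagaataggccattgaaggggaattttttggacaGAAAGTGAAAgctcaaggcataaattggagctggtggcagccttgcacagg
Cxcl6: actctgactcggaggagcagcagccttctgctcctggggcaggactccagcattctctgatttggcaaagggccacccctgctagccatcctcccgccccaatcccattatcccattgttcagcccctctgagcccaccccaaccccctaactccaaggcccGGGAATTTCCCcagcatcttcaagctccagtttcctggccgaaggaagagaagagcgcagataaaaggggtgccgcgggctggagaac
Cxcl10 held 1 interferon-stimulated response element core, 243 to 234 bases before the start, and NF-kappa B matches at 187 to 178 and at 128 to 118, the latter 2 overlapping matches. Ccl19 held the same interferon core at 51 to 42 bases. Cxcl6 held 2 overlapping NF-kappa B matches spanning 88 to 78 bases. None of the 3 motifs was found in the windows of Cxcl9, Cxcl12, Cxcl13, Cxcl16 and Cx3cl1. A match describes letters only and does not show binding.

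Libraries held 9069354 to 48079431 counts. Kidney libraries held 9069354 to 12637718 apart from NX library 4 with 18782085, whereas depth was uneven in heart, with 9894716 to 11866042 counts in Sham, 9605973 to 22679092 in NX and 11889483 to 48079431 in AVF+NX libraries. The 6 heart muscle defining markers summed to 48011 to 62319 counts per 1000000 (CPM) in hearts and 9.83 to 22.9 CPM in kidneys. The 8 tubule and podocyte markers summed to 10436 to 21263 CPM in kidneys and 2.75 to 5.28 CPM in hearts. In whole-organ RNA, a change in the number of cells of a type cannot be told apart from a change in RNA per cell. Genes passed, or were called, at an adjusted p under 0.05 in edgeR's quasi-likelihood test, with Benjamini-Hochberg adjustment over the 12794 genes tested in heart or the 14322 in kidney.

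Levels at rest were compared per length, as CPM per kilobase of gene length. In sham kidneys, 3 ligands stood apart above the others: Cxcl16 at 58.4 ± 4.38 (SD, n = 4), Cx3cl1 at 57.9 ± 6.13 and Cxcl12 at 55.8 ± 5.40, whose ranges overlapped. A middle group with overlapping ranges followed, with Ccl5 at 6.39 ± 1.73, Cxcl10 at 6.16 ± 1.63, Ccl19 at 5.71 ± 0.929 and Cxcl13 at 5.62 ± 2.65. Ccl2 (1.85 ± 0.969) and Cxcl9 (1.34 ± 0.419) were lower and overlapped each other, and Cxcl6 had 0 counts in all 4 libraries. In sham hearts Cxcl12 led alone with 29.3 ± 2.91 (n = 3), above Cx3cl1 at 11.2 ± 0.461, Ccl5 at 10.2 ± 1.52 and Cxcl16 at 8.94 ± 1.93, which overlapped as neighbours. Cxcl9 came next with 3.96 ± 1.34, and Cxcl10 (1.98 ± 0.698), Ccl2 (1.92 ± 0.388), Ccl19 (1.57 ± 0.682) and Cxcl13 (1.03 ± 1.01) were the lowest detected. In AVF+NX kidneys the gap between the 2 tiers was gone: Ccl19 reached 39.9 ± 17.8 and Cxcl13 32.3 ± 12.1, and each of the 8 neighbours in the order down to Ccl2 overlapped the next.

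**Figure D1:**
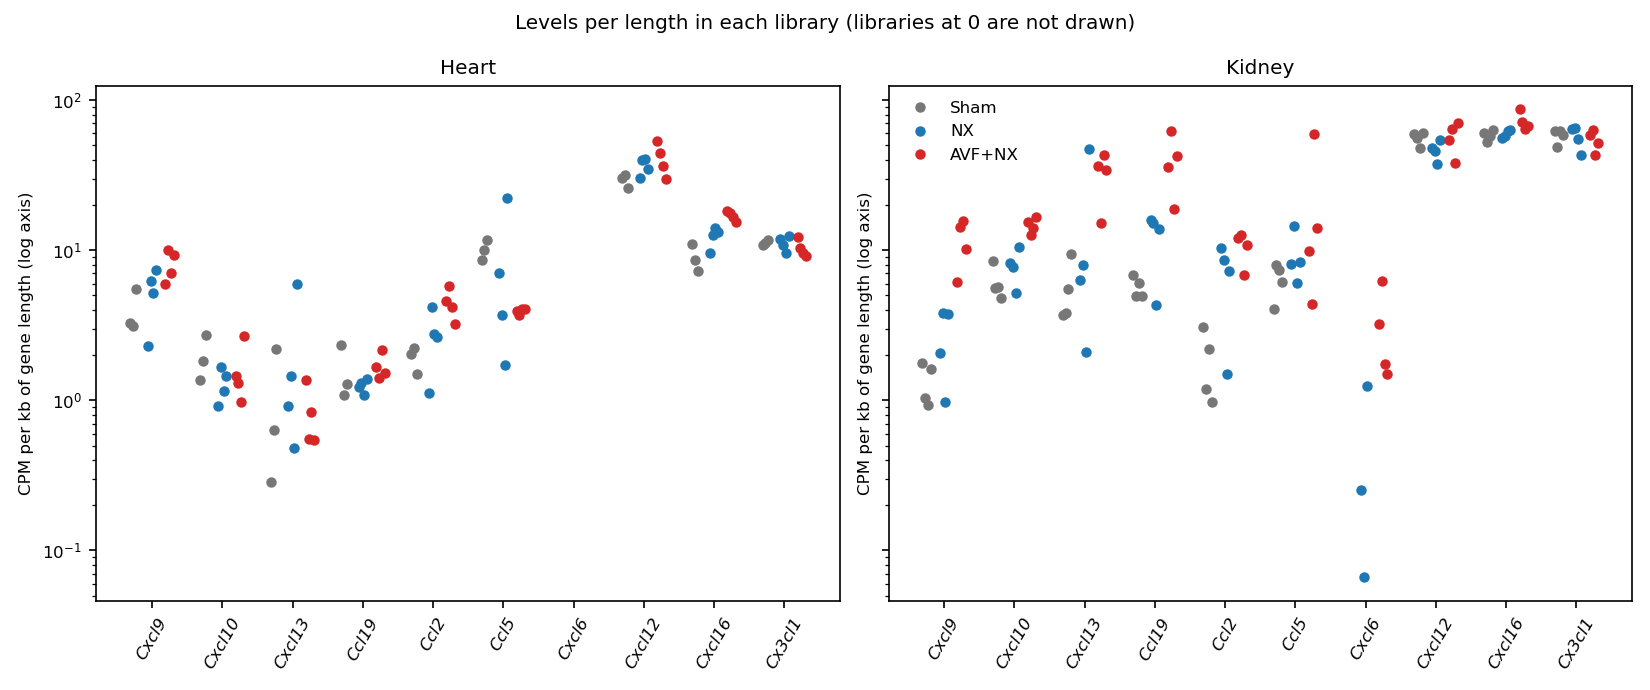
Each point is 1 library, with the level of a ligand on a log axis in CPM per kilobase of gene length, grouped by gene and coloured by surgery; libraries at 0 are not drawn. In sham kidneys Cxcl12, Cxcl16 and Cx3cl1 form an upper tier with means of 55.8 to 58.4 and the other ligands average 6.39 or below, while in AVF+NX kidneys Ccl19 averages 39.9 and Cxcl13 32.3.

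Levels in sham organs differed between heart and kidney for 5 of the 10 ligands in a joint fit of all libraries, where 71.2% of genes were called, 33.2% higher and 37.9% lower in heart. Cxcl9 was 4.77-fold higher in heart (log2 2.26, SE 0.44, adjusted p = 1e-04). The other 4 were lower in heart: Cxcl16 (log2 -2.02, SE 0.15), Cx3cl1 (-1.69, SE 0.15), Ccl19 (-1.14, SE 0.44) and Cxcl10 (-0.95, SE 0.31), with adjusted p = 2e-11, 5.42e-10, 0.024 and 0.00888. The median gene stood at -0.11 in this fit, and CPM values elsewhere are scaled within an organ, so they are not compared across organs. With most genes called, these folds depend on how the organs are scaled to each other. Another scaling (RLE size factors) called the same 5 ligands. The call of Ccl19 ended without Heart Sham library 2 or 3 (adjusted p = 0.0951 and 0.0884) or Kidney Sham library 1, and that of Cxcl10 without Heart Sham library 1 (0.0665). Art3, which overlaps Cxcl10, is itself far higher in heart (log2 7.70), and Zmynd15, which overlaps Cxcl16, is lower there (log2 -4.17, SE 0.38). Their part in the values of Cxcl10 and Cxcl16 was not tested.

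The comparison of AVF+NX with Sham kidneys asks what the combined surgery was followed by in the remaining kidney. Here 7 of the 10 ligands rose and 0 fell, where 15.9% of all genes tested rose and 9.18% fell. The interferon-inducible T cell attractants Cxcl9 and Cxcl10, the lymphoid chemokines Ccl19 and Cxcl13, the monocyte attractant Ccl2, the neutrophil attractant Cxcl6 and, by a smaller step, Cxcl16 made up the 7. Ccl5, Cxcl12 and Cx3cl1 did not pass. The median log2 fold change of the 10 ligands was 2.14, against -0.01 over all genes. For the same 7 ligands the AVF+NX and Sham libraries did not overlap, where 16.4% of genes lay fully higher and 11.2% fully lower.

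Cxcl9, a ligand of Cxcr3, stood at 2.67, 1.56, 1.40 and 2.43 CPM in sham kidneys 1 to 4, at 3.09, 5.70, 1.47 and 5.63 CPM after NX and at 9.25, 21.4, 23.4 and 15.2 CPM after AVF+NX. Every AVF+NX library lay above every library of the other 2 groups, and NX library 3 was at the sham level. Against Sham, Cxcl9 rose 8.64-fold (log2 3.11, SE 0.41, adjusted p = 0.000293). It was called in each of the 12 fits that left out 1 kidney library. Cxcl10, another ligand of Cxcr3, stood at 9.68, 6.33, 6.47 and 5.48 CPM after sham surgery, at 9.28, 8.82, 5.88 and 12.0 CPM after NX and at 17.6, 14.4, 15.9 and 18.8 CPM after AVF+NX. The AVF+NX libraries were again separate from both other groups and the spread among them was small, with a mean of 16.7 ± 1.91 CPM (SD, n = 4). Cxcl10 rose 2.40-fold against Sham (log2 1.26, SE 0.21, adjusted p = 0.00122). The overlapping Art3 gene stood at a log2 difference of 0.68 there (SE 0.40, adjusted p = 0.24), and its part in the value of Cxcl10 was not tested.

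Ccl19, which guides T cells and mature dendritic cells through Ccr7, stood at 5.23, 3.78, 4.63 and 3.78 CPM in sham kidneys, at 12.1, 11.5, 3.28 and 10.6 CPM after NX and at 27.4, 47.3, 14.4 and 32.4 CPM after AVF+NX. The 3 groups formed steps except for NX library 3, which lay below all sham libraries. Ccl19 rose 6.99-fold from Sham to AVF+NX (log2 2.81, SE 0.40, adjusted p = 0.000504). Cxcl13, which draws B cells into follicles, stood at 4.23, 4.36, 6.29 and 10.7 CPM after sham surgery, at 7.22, 9.14, 2.37 and 53.6 CPM after NX and at 41.7, 17.3, 49.2 and 39.0 CPM after AVF+NX. NX library 4 held more Cxcl13 than any AVF+NX library, and the other 3 NX libraries lay below all of them. Cxcl13 rose 5.73-fold against Sham (log2 2.52, SE 0.78, adjusted p = 0.0352), the weakest of the 7 calls by its p. It lost its call on leaving out AVF+NX library 1, 3 or 4 or any of the 4 Sham libraries (adjusted p = 0.0524 to 0.0947, log2 2.35 to 2.88) and without a count filter (0.0893).

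Ccl2, the chief monocyte attractant, stood at 2.56, 0.99, 1.83 and 0.81 CPM after sham surgery, at 8.66, 7.20, 1.24 and 6.08 CPM after NX and at 10.1, 10.6, 5.75 and 9.07 CPM after AVF+NX. AVF+NX libraries lay above all sham libraries and overlapped those of NX. Ccl2 rose 5.82-fold against Sham (log2 2.54, SE 0.49, adjusted p = 0.00312). Ccl5, a T cell product that attracts T cells and monocytes, stood at 2.23, 4.36, 4.02 and 3.33 CPM after sham surgery, at 4.43, 7.85, 3.28 and 4.55 CPM after NX and at 5.39, 2.38, 32.6 and 7.64 CPM after AVF+NX. The groups overlapped and AVF+NX library 3 alone carried most of the mean. The log2 fold change of Ccl5 was 1.77 (SE 0.65, 95% interval 0.35 to 3.18, adjusted p = 0.0658), it was 0.55 without AVF+NX library 3 (0.305), and it passed without AVF+NX library 2 (2.11, adjusted p = 0.0208).

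Cxcl6, the neutrophil attractant, was not detected in sham kidneys. It had 0 counts in each of the 4 sham libraries, 4, 1, 0 and 41 counts (0.41, 0.11, 0 and 2.03 CPM) in the NX libraries and 58, 98, 28 and 24 counts (5.21, 10.1, 2.83 and 2.45 CPM) in the AVF+NX libraries. In CPM all AVF+NX libraries exceeded all others, with a narrow margin between NX library 4 (2.03) and AVF+NX library 4 (2.45). In raw counts NX library 4, which was sequenced deeper, exceeded AVF+NX libraries 3 and 4. Taking 3 counts over the sham group as the most that a count of 0 allows (0.0686 CPM), Cxcl6 was at least 75.1-fold higher after AVF+NX (adjusted p = 0.00441), a bound that covers counting error only.

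The ligands that were abundant at rest moved least. Cxcl16, the membrane ligand of Cxcr6, stood at 103, 89.9, 98.3 and 108 CPM after sham surgery, at 95.7, 98.4, 106 and 107 CPM after NX and at 148, 121, 110 and 115 CPM after AVF+NX. AVF+NX libraries lay just above the other groups and library 1 was highest. Cxcl16 rose 1.24-fold against Sham (log2 0.31, SE 0.10, adjusted p = 0.0293), a call lost on leaving out any 1 of AVF+NX libraries 1 and 2 and Sham libraries 2 and 3 (0.0543 to 0.0933). Cxcl12, which retains Cxcr4-bearing cells in stroma and marrow, stood at 321, 302, 261 and 326 CPM after sham surgery, at 260, 250, 205 and 295 CPM after NX and at 293, 346, 208 and 380 CPM after AVF+NX. Its 3 groups overlapped, with a log2 fold change of 0.02 (95% interval -0.34 to 0.38) between AVF+NX and Sham. Cx3cl1, the membrane ligand of Cx3cr1, ran from 153 to 194 CPM after sham surgery, from 135 to 204 CPM after NX and from 134 to 197 CPM after AVF+NX. These groups overlapped too, and the log2 fold change was -0.10 (95% interval -0.42 to 0.21).

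**Figure D2:**
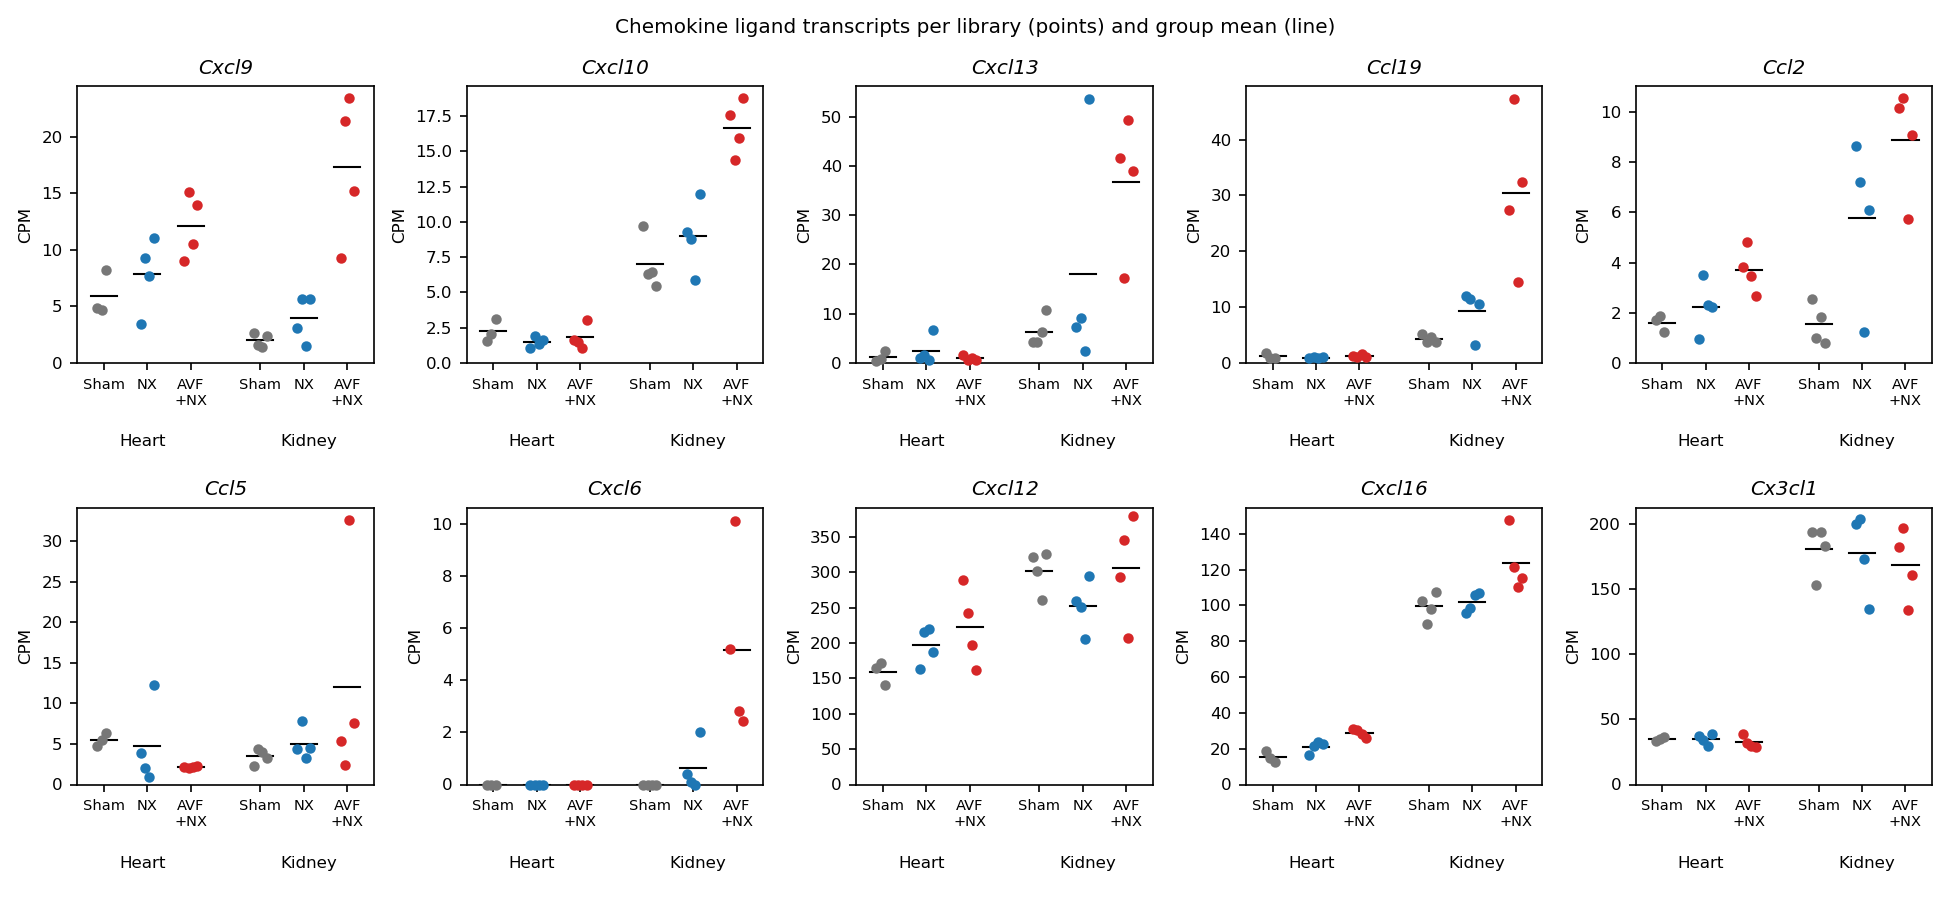
Each panel shows 1 ligand, each point the CPM of 1 library (linear axis from 0) and each line the mean of a group, with heart on the left and kidney on the right. In kidney, the AVF+NX points of Cxcl9, Cxcl10, Ccl19 and Cxcl6 lie above all Sham and NX points, NX library 4 stands out for Cxcl13 at 53.6 CPM, and AVF+NX library 3 stands out for Ccl5 at 32.6 CPM.

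Within the AVF+NX kidneys the ligands did not rank the libraries alike. Library 3 had the highest Cxcl9, Cxcl13 and Ccl5 of the 4 and the lowest Ccl19, Ccl2, Cxcl16, Cxcl12 and Cx3cl1. Library 2 had the highest Ccl19, Ccl2, Cxcl6 and Cx3cl1 and the lowest Cxcl10, Cxcl13 and Ccl5. The receptor genes Cxcr3 and Cxcr5 were also highest in library 3, at 13.3 and 6.36 CPM. Cxcr4 (29.4 CPM), Cxcr6 (16.0 CPM), Ccr7 (5.84 CPM) and Cx3cr1 (19.2 CPM) were instead highest in library 1. Library 3 had the lowest Cx3cr1 (7.77 CPM) and the lowest summed B cell and plasma cell markers (205 CPM). With 4 libraries this is a description of those samples.

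Nephrectomy alone was set against sham surgery next. No ligand passed the test in the kidney, where 1.31% of genes were called and 123 rose. At an unadjusted p below 0.05 there were 4 of the 10 (and 2488 genes in all), limma voom called 0 ligands and DESeq2 called 2, Ccl2 and Cxcl6. The log2 fold changes ran above 1 for several ligands with wide intervals: 1.93 for Ccl2 (SE 0.50, 0.86 to 3.01, adjusted p = 0.0776), 1.12 for Ccl19 (SE 0.41, adjusted p = 0.183), 1.02 for Cxcl9 (SE 0.42, 0.24) and 1.56 for Cxcl13 (SE 0.77, 0.33). NX library 3, which sat at or near the sham level for these genes, decided 2 of them: without it Ccl2 (log2 2.25, adjusted p = 0.00666) and Ccl19 (1.39, 0.0371) passed. NX library 4 decided Cxcl13, whose log2 fold change was -0.03 without it. Cxcl6 was at least 9.28-fold higher after NX than the bound on Sham, but 41 of its 46 NX counts came from library 4 and its adjusted p was 0.169. In no ligand did NX and Sham libraries separate fully, where 5.28% of genes lay fully higher after NX and 4.1% fully lower. Cxcl16 (0.03), Cx3cl1 (-0.03), Cxcl12 (-0.26) and Cxcl10 (0.39) had log2 fold changes within 0.4 of 0, with 95% intervals of -0.17 to 0.24, -0.34 to 0.29, -0.62 to 0.10 and -0.08 to 0.85.

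The contrast of AVF+NX with NX asks what came with the fistula in rats that all had the nephrectomy. In kidney 3 of the 10 ligands rose and 0 fell, where 4.87% of genes rose and 1.2% fell. Cxcl9 rose 4.24-fold (log2 2.09, SE 0.38, adjusted p = 0.0102), Ccl19 3.22-fold (log2 1.69, SE 0.37, 0.0228) and Cxcl10 1.83-fold (log2 0.87, SE 0.21, 0.0299). These 3 separated fully from NX, as did Cxcl6 and Cxcl16, so that 5 of 10 lay fully higher where 7.49% of genes did and 4.31% lay fully lower. The call of Cxcl9 held on leaving out any of the 12 kidney libraries. That of Ccl19 was lost without AVF+NX library 1, 2 or 4 (adjusted p = 0.053 to 0.0543), that of Cxcl10 was lost without AVF+NX library 1 or 4 or NX library 1, 2 or 3 (0.058 to 0.0824), and both ended in a fit of these 2 groups alone (0.0868 and 0.0644). Ccl19 also lost its call without a count filter (0.0539). For Cxcl6 the log2 difference was 2.71 (SE 0.83, adjusted p = 0.0909) and for Cxcl13 0.96 (SE 0.71, 0.453). Both turned on NX library 4: without it they stood at 4.76 (0.0168) and 2.55 (0.013). Ccl2 (0.61, SE 0.44) and Ccl5 (1.26, SE 0.63) did not pass, nor did Cxcl16 (0.28, SE 0.10, adjusted p = 0.0995), Cxcl12 (0.28, SE 0.17) or Cx3cl1 (-0.08, SE 0.15). Without AVF+NX library 3, Ccl5 stood at 0.058 (0.944), and Cxcl12 (0.45, 0.0418) and Cxcl16 (0.35, 0.0405) passed. The 3 comparisons share their groups and are not independent of each other.

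**Figure D3:**
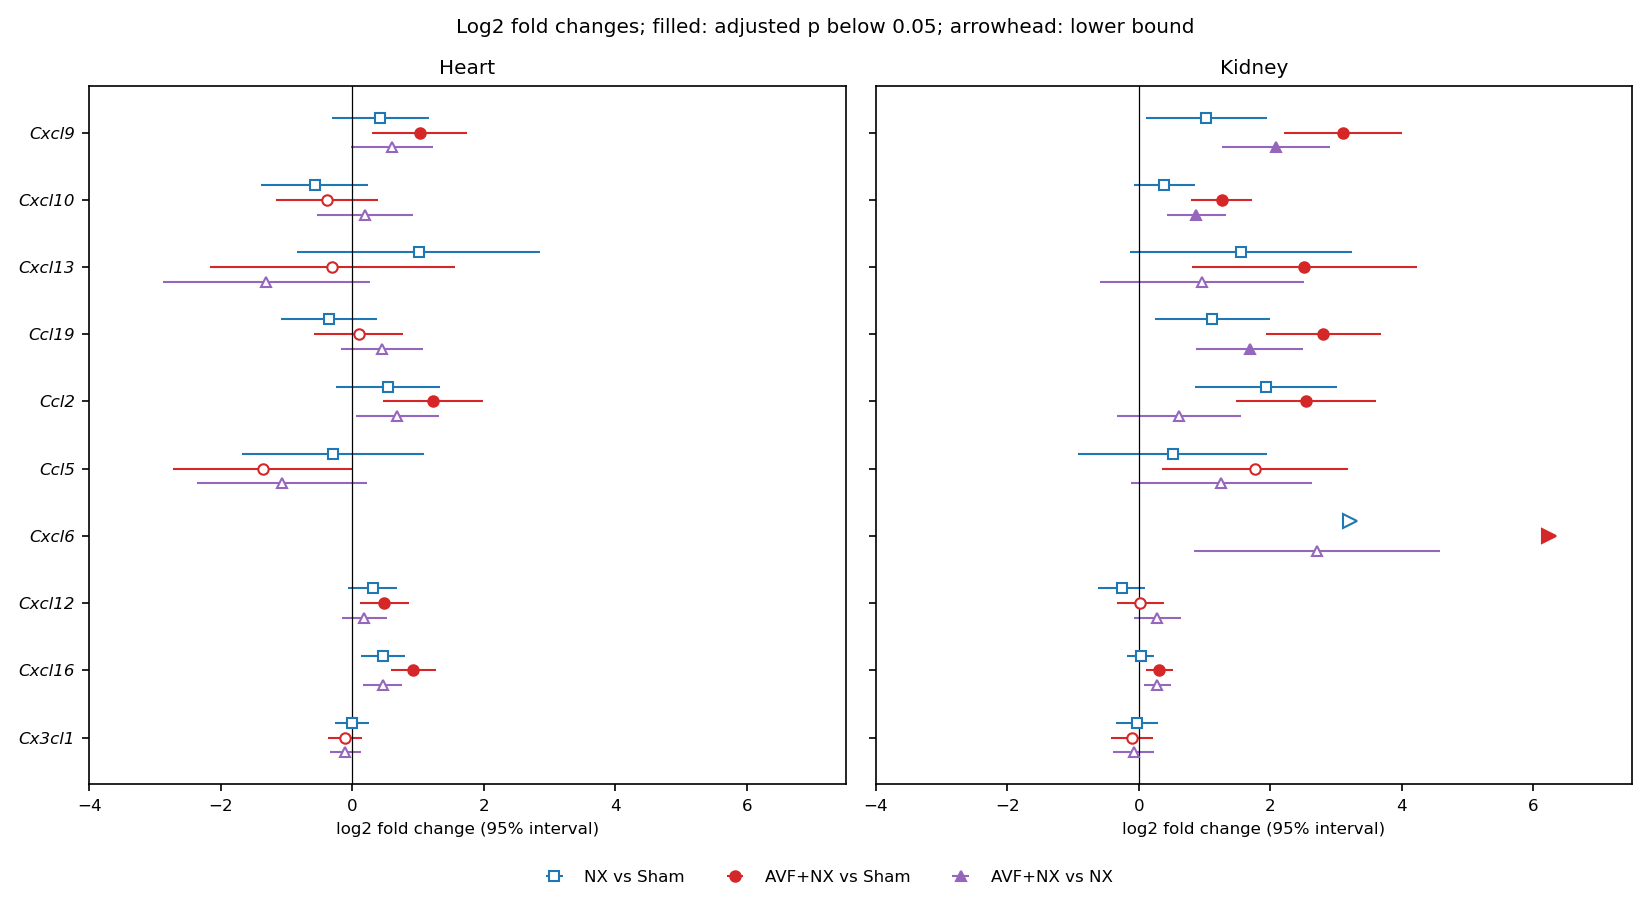
Log2 fold changes with 95% intervals for each ligand in heart (left) and kidney (right), for NX vs Sham (squares), AVF+NX vs Sham (circles) and AVF+NX vs NX (triangles); filled symbols passed at an adjusted p below 0.05 and arrowheads are lower bounds for Cxcl6. In kidney 7 of the AVF+NX vs Sham symbols are filled, from Cxcl16 at 0.31 to Cxcl9 at 3.11 and the bound of Cxcl6, and in heart 4 are, between 0.48 and 1.23.

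The receptors that read these ligands were examined next, from a list of 15 receptor and decoy receptor genes of which 13 were matched and 10 tested in kidney. Ccr2, the receptor of Ccl2, and Ackr1 were not matched. Against Sham, 8 of the 10 rose in AVF+NX kidneys and 0 fell, with a median log2 fold change of 2.33, where 15.9% of all genes rose and 9.18% fell. Cxcr3, the receptor of Cxcl9 and Cxcl10, rose 5.75-fold, from 1.48 to 2.16 CPM after sham surgery to 6.73 to 13.3 CPM (adjusted p = 0.000191). Ccr7, the receptor of Ccl19, rose 17.9-fold, from 0.0874 to 0.36 CPM to 3.93 to 5.84 CPM (4.31e-05), and Cxcr5, the receptor of Cxcl13, rose 2.64-fold, from 1.22 to 2.11 CPM to 2.69 to 6.36 CPM (0.00706). The receptors of the 3 ligands that were abundant at rest rose as well. Cxcr4 rose 6.81-fold (adjusted p = 4.31e-05), Cxcr6 6.95-fold (0.0021) and Cx3cr1 1.98-fold (0.0127), while their ligands Cxcl12, Cxcl16 and Cx3cl1 had ratios of 1.01, 1.24 and 0.931. Ccr1, a receptor of Ccl5, rose 12.2-fold (0.000129), while Ccl5 itself did not pass. The sham level of Ccr1 was low, at 0.208 CPM (9 counts over the group), against 2.64 CPM after AVF+NX. Cxcr2, the receptor of Cxcl6, was too low in kidney to be tested, as were Ccr3 and Ackr2. The decoy receptors Ackr3 (log2 -0.06, adjusted p = 0.814) and Ackr4 (0.89, 0.245) did not pass. Cxcr6 overlaps Fyco1 on the opposite strand, so its counts are uncertain.

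Some receptors had already moved after nephrectomy alone. Cxcr4 rose 2.49-fold (adjusted p = 0.0297) and Ccr7 4.81-fold (0.0297) in NX kidneys against Sham, and the other 8 tested did not pass, where 1.31% of genes were called. From NX to AVF+NX, 6 of the 10 rose, among them Cxcr4 (2.74-fold), Ccr7 (3.72-fold), Cxcr3 (3.30-fold), Ccr1 (3.00-fold) and Cxcr6 (3.57-fold), with adjusted p from 0.00545 to 0.0401, where 4.87% of genes rose. Cx3cr1 had a ratio of 1.18 there (adjusted p = 0.598) and Cxcr5 of 2.11 (0.0593). In heart 8 of the receptor genes were tested, and Ackr2, a decoy that removes inflammatory CC chemokines, was the 1 that rose in AVF+NX against Sham (2.34-fold, adjusted p = 0.0148), where 15.4% of genes rose. In this heart comparison the surgery cannot be told apart from sequencing depth, as described below for the heart ligands.

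**Figure D4:**
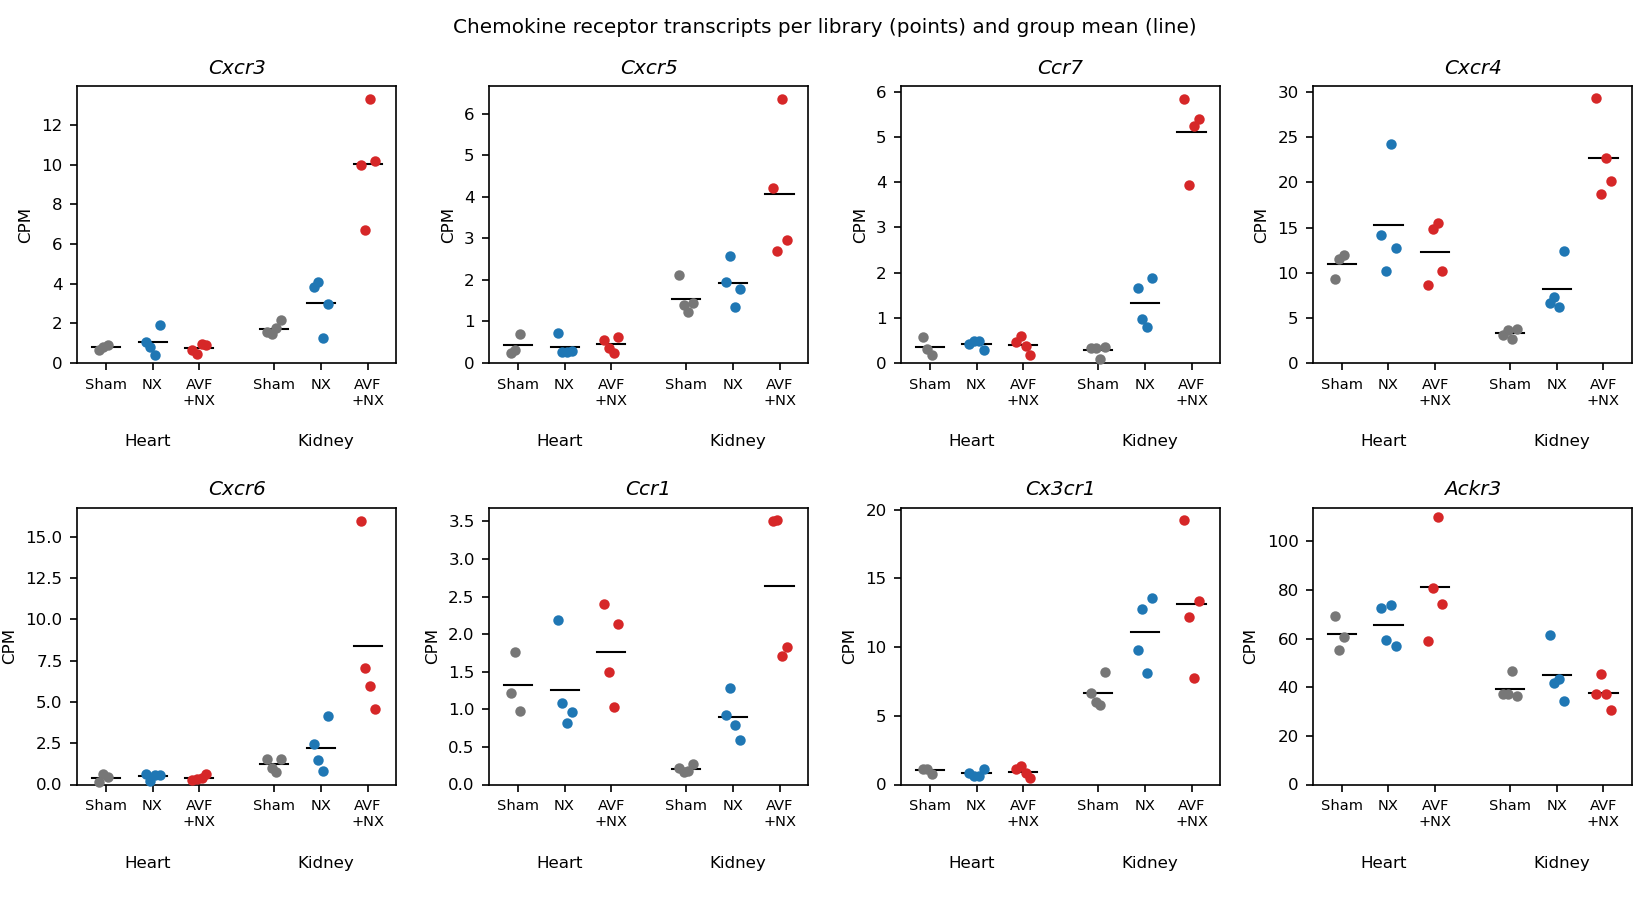
Each panel shows 1 receptor gene, each point the CPM of 1 library (linear axis from 0) and each line a group mean, with heart on the left and kidney on the right. The kidney AVF+NX points of Cxcr3, Ccr7 and Cxcr4 lie above all Sham and NX points, while the heart groups of these genes overlap.

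Among the 24 other chemokine ligands listed, 17 were matched and 15 tested in kidney. In AVF+NX against Sham 8 of the 15 rose and 0 fell, with a median log2 fold change of 1.74, where 15.9% of all genes rose and 9.18% fell. The 4 with the smallest p were Ccl9, Ccl22, Ccl7 and Ccl6. Ccl9, a macrophage chemokine of rodents, went from 0.0649 ± 0.0434 CPM (SD, n = 4; 3 counts over the group) to 9.11 ± 7.01 CPM (adjusted p = 0.000462). Ccl22, a ligand of Ccr4 made by dendritic cells and macrophages, went from 0.0411 ± 0.0822 CPM (2 counts) to 3.55 ± 2.06 CPM (0.000489). Ccl7, which shares the receptor Ccr2 with Ccl2, rose 9.60-fold (0.00241) and was also the 1 gene of the list that rose after NX alone (7.35-fold, 0.0453). Its mean in sham kidneys was only 0.193 CPM. Ccl6 rose 3.48-fold (0.00328). Of 4 further chemokine receptors tested in kidney, Xcr1 of dendritic cells (7.38-fold, 0.00017) and Ccr6 of B cells and T cells (19.7-fold, 0.00116) rose. Ccr6 averaged 0.214 CPM in sham kidneys (9 counts over the group) and 4.27 CPM after AVF+NX. In heart 0 of the 10 other ligands tested rose and 1, Cxcl14, fell (log2 -1.98, adjusted p = 0.0239), where 15.4% of genes rose and 18.6% fell. Sequencing depth cannot be told apart from the surgery there either.

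Genes upstream of the inflammatory ligands were counted from a list of 18 interferon gamma and NF-kappa B pathway genes, of which 14 were matched and tested in kidney. The cytokine genes Ifng, Tnf, Lta and Ltb of that list were not matched, so they were not measured here. Of these 12 rose in AVF+NX against Sham, 3 in AVF+NX against NX and 0 in NX against Sham, where 15.9%, 4.87% and, in either direction, 1.31% of all genes were called. Irf8, a transcription factor of macrophages and dendritic cells that interferon gamma induces, rose 5.29-fold (adjusted p = 8.65e-05), and Irf1, which interferon gamma induces in many cell types, rose 2.21-fold (0.000307). Nfkb2, an NF-kappa B subunit, rose 1.76-fold (0.00121) and Tnfrsf1a, a receptor of tumour necrosis factor, rose 1.52-fold (0.00201). Irf1 stood at 44.0 to 45.5 CPM in the 4 AVF+NX kidneys and 17.4 to 23.9 CPM in the sham kidneys. In AVF+NX hearts 3 of 13 tested rose, Ifngr1 and Tnfrsf1a among them, and 3 fell, Nfkb2 (log2 -0.53) and Ltbr (-0.65) among them, shares near those of all genes (15.4% and 18.6%). The surgery cannot be told apart from sequencing depth in these heart values.

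Of 5 proteases that release or trim chemokines, 2 rose and 1 fell in AVF+NX kidneys against Sham, where 15.9% and 9.18% of all genes did. Adam17, which can shed Cx3cl1, rose 1.56-fold (adjusted p = 0.00201) and Mmp2, which can cleave chemokines such as Ccl7, rose 4.97-fold (0.000815). Dpp4, a peptidase of the tubule brush border that trims the start of Cxcl10 and Cxcl12, fell by 0.60 on the log2 scale (SE 0.13, adjusted p = 0.006), from 1231 ± 66.8 CPM to 810 ± 65.9 CPM (SD, n = 4 each). Adam10, which sheds Cxcl16 and Cx3cl1, had a log2 fold change of 0.13 (0.405). In hearts Adam17 (1.56-fold, 0.0119) and Dpp4 (1.35-fold, 0.0329) rose in the same comparison, where 15.4% of genes rose. There the surgery cannot be told apart from sequencing depth, as described below for the heart ligands.

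Markers of white blood cells moved with the ligands in kidney. In AVF+NX against Sham, 11 of 11 macrophage markers, 11 of 11 T cell markers, 11 of 11 B cell and plasma cell markers, 5 of 7 dendritic cell markers, 2 of 2 neutrophil markers and 6 of 8 fibroblast markers tested rose, and 5 of 8 tubule and podocyte markers fell, where 15.9% of all genes rose and 9.18% fell. Of 7 neutrophil markers listed, 4 were matched. A gene near 0 in Sham can pass the count filter through its AVF+NX libraries alone, which favours a rise among the genes tested. The B cell marker Ms4a1 had 0 counts in sham kidneys and averaged 0.35 CPM after NX and 6.07 CPM after AVF+NX. This limit holds for the receptor and ligand lists too. Of 4 matched markers of lymphoid stroma and lymphatic endothelium (Pdpn, Lyve1, Prox1 and Flt4), 1 rose. Their sums ran from 99.7 to 149 CPM after sham surgery and 109 to 172 CPM after AVF+NX. Fdcsp, Madcam1, Glycam1 and Clec4g of that list were not matched. Of 7 endothelial markers 1 rose and 2 fell. Summed macrophage markers (11 genes, none at 0 in any kidney library) ran from 324 to 412 CPM after sham surgery, 386 to 1222 CPM after NX and 1143 to 2445 CPM after AVF+NX. Summed T cell markers (12 genes) ran from 36.0 to 45.3, 51.2 to 136 and 148 to 247 CPM. Summed B cell and plasma cell markers (11 genes, up to 3 of them at 0 in a library) ran from 4.93 to 6.92, 12.0 to 68.9 and 205 to 389 CPM. The sums of tubule and podocyte markers ran the other way, from 19527 to 21263 CPM, 15278 to 17950 CPM and 10436 to 15365 CPM. The part of these cell types in the changes of the ligands was not tested.

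The same sums set apart the NX kidneys that decided ligand values. NX library 3, lowest of its group in Cxcl9, Cxcl10, Cxcl13, Ccl19, Ccl2 and Cxcl6, was also lowest in macrophage (386 CPM), T cell (51.2 CPM), B cell and plasma cell (12.0 CPM) and neutrophil markers (2.94 CPM). NX library 4, with 53.6 CPM of Cxcl13 and 41 of the 46 NX counts of Cxcl6, was highest in macrophage (1222 CPM), T cell (136 CPM) and neutrophil markers (21.6 CPM, against 4.54 CPM or less in the other 3).

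**Figure D5:**
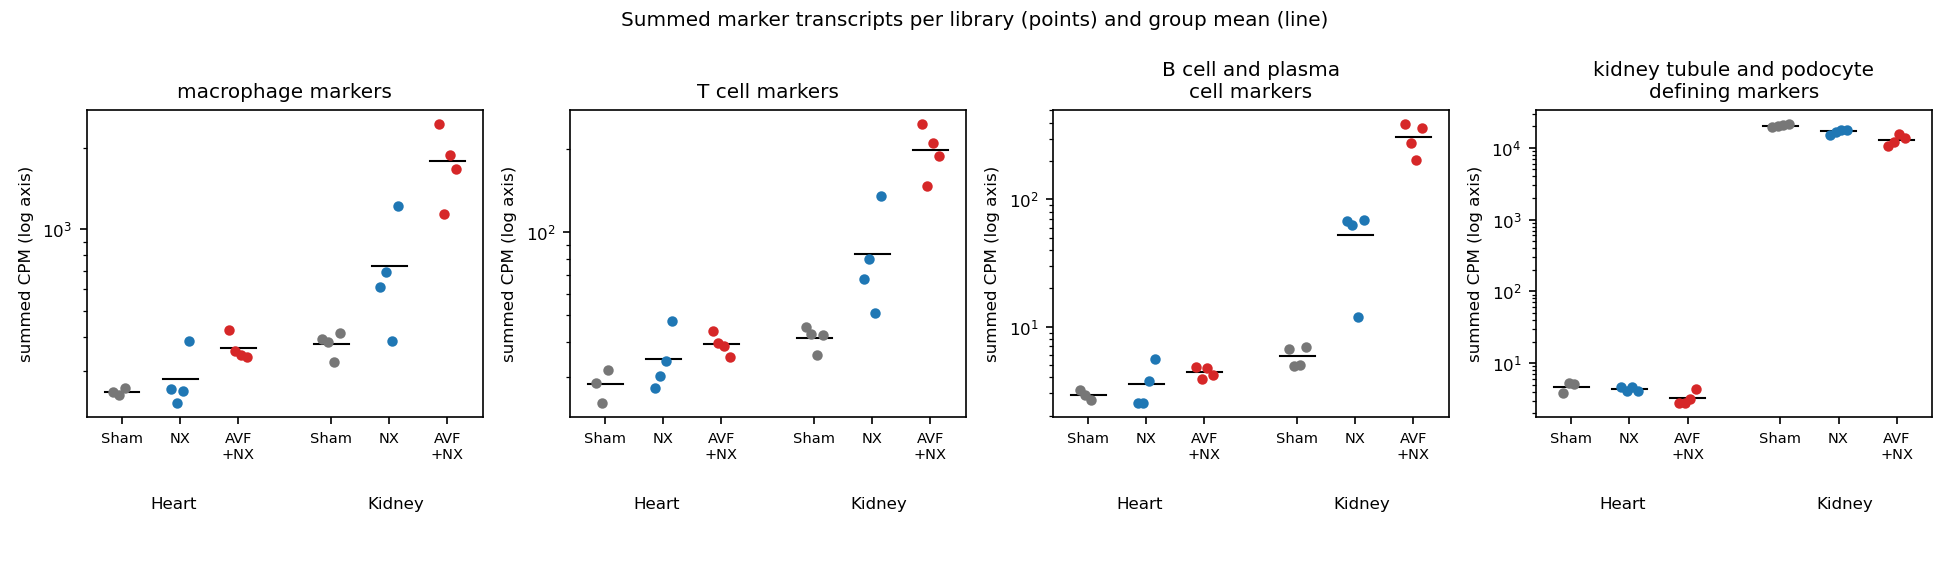
Summed CPM of marker genes on log axes, with 1 point per library and a line at the mean of each group, for macrophage, T cell, B cell and plasma cell, and tubule and podocyte markers. In kidney the mean white blood cell sums are lowest in Sham and highest in AVF+NX, with NX library 3 lowest in its group, and the tubule and podocyte sum is lowest in AVF+NX at 10436 to 15365 CPM.

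In the heart, nephrectomy alone was followed by no called ligand among the 9 tested (0% of genes were called). Cxcl6 had 0 counts in all 11 heart libraries, which allows up to 0.0903 CPM over the Sham group, 0.0489 over NX and 0.0226 over AVF+NX, and it was not tested. At an unadjusted p below 0.05 there was 1 ligand, Cxcl16 (log2 0.47, SE 0.16, adjusted p = 0.174), and 2662 genes, while DESeq2 and limma voom called 0 ligands. Without NX library 1, which had the lowest Cxcl16, Cxcl9, Ccl2 and Cxcl12 of its group, Cxcl16 passed (0.57, 0.0456). No NX and Sham groups separated fully in any ligand, where 6.92% of genes lay fully higher and 8.94% fully lower.

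In AVF+NX hearts 4 of the 9 ligands tested rose against Sham and 0 fell, where 15.4% of genes rose and 18.6% fell. Cxcl16 stood at 18.8, 14.6 and 12.3 CPM after sham surgery, at 16.2, 21.6, 23.8 and 22.4 CPM after NX and at 31.2, 30.4, 28.4 and 26.1 CPM after AVF+NX. The AVF+NX hearts were separate from both other groups. Cxcl16 rose 1.90-fold against Sham (log2 0.93, SE 0.16, adjusted p = 0.00235) and was called on leaving out any of the 11 heart libraries. Cxcl9 stood at 4.89, 4.66 and 8.25 CPM after sham surgery, at 3.44, 9.33, 7.74 and 11.1 CPM after NX and at 8.99, 15.1, 10.5 and 14.0 CPM after AVF+NX. Its AVF+NX hearts cleared the highest sham heart narrowly and overlapped those of NX. Cxcl9 rose 2.04-fold (log2 1.03, SE 0.33, adjusted p = 0.0325), a call lost on leaving out any 1 of AVF+NX libraries 2 and 4 and Sham libraries 1 and 2 (0.0559 to 0.119). The call of Cxcl9 also ended without a count filter (0.0644).

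Ccl2 stood at 1.71, 1.86 and 1.24 CPM in sham hearts, at 0.94, 3.50, 2.31 and 2.21 CPM after NX and at 3.81, 4.82, 3.47 and 2.67 CPM after AVF+NX. Sham and AVF+NX hearts did not overlap. Ccl2 rose 2.34-fold (log2 1.23, SE 0.35, adjusted p = 0.0182), a call lost on leaving out AVF+NX library 2 or 1 of Sham libraries 1 and 3 (0.0527 to 0.077). Cxcl12, the most abundant ligand of the heart, stood at 164, 172 and 141 CPM after sham surgery, at 163, 215, 220 and 188 CPM after NX and at 289, 242, 197 and 161 CPM after AVF+NX. AVF+NX library 4 lay inside the sham range. Cxcl12 rose 1.40-fold (log2 0.48, SE 0.17, adjusted p = 0.0455) and lost its call without any of AVF+NX libraries 1 and 2, NX library 4 and Sham libraries 1, 2 and 3 (0.053 to 0.145), with limma voom (0.0541), in a fit of the 2 groups alone (0.071) and without a count filter (0.0525).

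All 4 heart calls ended when the total count of a library was added to the fit (adjusted p = 0.143 to 0.74) and when an index of 63 small structured RNA genes was added (0.0906 to 0.509). Over all genes these terms left 2 and 58 of 4357 calls. The same limit applies to every other gene given here as higher or lower in AVF+NX than Sham hearts. The index was 0.79 to 0.84 in sham hearts, -0.89 to -0.28 in AVF+NX hearts and -1.02 to 1.00 in NX hearts, and depth was likewise highest after AVF+NX, so that depth, the index and the surgery cannot be told apart in the comparison with Sham. The log2 fold changes with the total count as a term were 0.74 for Cxcl16, 0.93 for Cxcl9, 0.49 for Ccl2 and 0.15 for Cxcl12, and with the index 0.78, 0.66, 0.59 and 0.38.

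Ccl5 went the other way in the heart. It stood at 4.73, 5.49 and 6.38 CPM after sham surgery, at 3.85, 2.03, 0.93 and 12.2 CPM after NX and at 2.15, 2.02, 2.22 and 2.23 CPM after AVF+NX. The AVF+NX hearts lay within a narrow band below every sham heart, and NX library 4 exceeded them all. The log2 fold change between AVF+NX and Sham was -1.36 (SE 0.63, 95% interval -2.73 to 0.01, adjusted p = 0.112). It passed without NX library 4 (adjusted p = 0.0067) or NX library 3 (0.0422), in a fit of these 2 groups alone (0.000141) and with limma voom (0.0489), and it was 0.26 with the small RNA index as a term. In total 3 ligands lay fully higher (22.8% of genes) and this 1 fully lower (24.6%) in AVF+NX than Sham hearts.

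The remaining heart ligands had low counts or flat values. Cxcl13 ran from 0.326 to 2.48 CPM after sham surgery, from 0.549 to 6.73 CPM after NX and from 0.624 to 1.55 CPM after AVF+NX, with overlapping groups. Its highest heart value, 6.73 CPM, was in NX library 4, which was also highest in Ccl5, in macrophage markers (386 CPM, against 255 CPM or less in the other 3 NX hearts) and in neutrophil markers (12.6 CPM, against 1.92 CPM or less). Ccl19 ran from 0.824 to 1.79 CPM and Cxcl10 from 1.04 to 3.10 CPM over all 11 hearts, and Cx3cl1 from 28.7 to 38.9 CPM. The log2 fold changes between AVF+NX and Sham were 0.10 for Ccl19 (95% interval -0.58 to 0.78), -0.39 for Cxcl10 (-1.17 to 0.39), -0.30 for Cxcl13 (-2.17 to 1.57) and -0.11 for Cx3cl1 (-0.37 to 0.14). Summed macrophage markers ran from 244 to 259 CPM in sham hearts and 338 to 423 CPM in AVF+NX hearts, with 3 of 11 called higher and 1 lower, and T cell markers from 24.0 to 31.8 and 35.3 to 44.0 CPM, with 2 of 8 higher. Summed endothelial markers ran from 614 to 745 and 837 to 1042 CPM (5 of 7 higher), and fibroblast markers from 1220 to 1420 and 1698 to 2251 CPM (5 of 8 higher). Of all genes, 15.4% rose and 18.6% fell there. The part of these cell types in the heart values was not tested.

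Between AVF+NX and NX hearts no ligand passed, where 0.336% of genes were called. DESeq2 called 1, Cxcl16 (log2 0.46, adjusted p = 0.0399), limma voom called 0, and 2 ligands and 2752 genes had an unadjusted p below 0.05. Cxcl16 and Ccl19 lay fully higher in AVF+NX than NX hearts, where 4.96% of genes did and 5.1% lay fully lower. Their log2 fold changes were 0.46 (SE 0.14, adjusted p = 0.107) and 0.45 (SE 0.29, 0.374).

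Whether the response to AVF+NX differed between the organs was tested as the heart change minus the kidney change, in 1 fit of all 23 libraries. The difference from Sham was called for 5 ligands, where 27.9% of genes were called, 13.3% with the higher change in heart and 14.6% with the lower. For 4 of them the heart change was the lower: Ccl19 (log2 -2.61, SE 0.57, adjusted p = 0.00236), Cxcl10 (-1.57, SE 0.41, 0.00701), Cxcl9 (-1.99, SE 0.56, 0.0114) and Ccl5 (-3.04, SE 0.96, 0.0234). For Cxcl16 the heart change was the higher, by 0.71 (SE 0.19, adjusted p = 0.00867). All 5 differences include the heart change from Sham, where the surgery cannot be told apart from depth and the small RNA index. No organ difference was fitted with either as a term. The difference for Ccl5 ended without Kidney AVF+NX library 3 (-1.82, 0.0812) or Heart Sham library 3 (-2.92, 0.0517) and without a count filter (0.0552). Ccl2 (-1.22, SE 0.66, 0.171), Cxcl13 (-2.73, SE 1.41, 0.159), Cxcl12 (0.56, SE 0.26, 0.115) and Cx3cl1 (0.08, SE 0.19, 0.808) did not pass, and Cxcl6 could not be estimated with 0 counts in heart. The value of Cxcl13 was -1.52 (0.635) without Heart Sham library 3, and Cxcl12 passed without Heart AVF+NX library 4 (0.69, 0.0398). With the replicate number as a block, Ccl5 lost its call (-2.50, 0.0703) and Cxcl13 passed (-2.92, 0.00187). The labels do not say that this number marks a shared rat. For NX vs Sham and for AVF+NX vs NX the organ difference passed in 0 ligands, where 0.158% and 1.12% of genes were called and 4 and 3 ligands had an unadjusted p below 0.05.

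Genes with the pattern most like each called ligand were found by the smallest root mean square difference of log2(CPM + 0.5), centred over the libraries of an organ. Over the 12 kidney libraries and 12695 genes, Cxcl9 was nearest to the potassium channel gene Kcnn4 (0.41) and the T cell receptor component Cd3g (0.46), against a spread of Cxcl9 itself of 1.29. Cxcl10 was nearest to Stap1 (0.16) and Prdm1 (0.18), the latter a transcription factor of plasma cells, and Cxcl13 to the membrane protein gene Ms4a7 (0.49) and the macrophage marker Adgre1 (0.52). Ccl19 was nearest to the collagen gene Col16a1 (0.36) and the integrin gene Itgb7 (0.39). Ccl2 was nearest to Col16a1 (0.38) and Sfn (0.40), and Cxcl6 to Ikzf3 (0.50) and Blk (0.52), both expressed in B cells. Cxcl16 was nearest to Rpl6 (0.08) and Taf1d (0.09), against its own spread of 0.18. In the 11 hearts and 11267 genes, Cxcl16 was nearest to Ca5b (0.10) and Slc15a3 (0.13), Cxcl9 to Ttc12 (0.31) and Pcsk5 (0.32), Ccl2 to Aadat (0.19) and Dclk1 (0.21) and Cxcl12 to Tbc1d1 (0.12) and Gtf3c3 (0.12). These likenesses share libraries and depth and carry no test.

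The authors' deposited tables gave the same number of called ligands for AVF+NX vs Sham kidneys, 7, and 4 against NX, where Cxcl6 (adjusted p = 0.0179) was the addition to the 3 above. For NX vs Sham kidneys the authors' deposited table called 2 of the 9 ligands it listed, Ccl2 (log2 1.90, adjusted p = 0.0106) and Ccl19 (1.09, 0.0352). In heart the authors' deposited table called 5 ligands for AVF+NX vs Sham, the 4 above and Ccl5 as lower (log2 -1.37, adjusted p = 2.13e-08). It called 1, Cxcl16, against NX (0.0326).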

How the data were processed

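Poly(A) RNA of 11 hearts and 12 kidneys was sequenced from strand-specific libraries, per the labels' protocols. Per the submitters' processing notes, Trimmomatic 0.36, STAR 2.5.2b, featureCounts and Subread 1.5.2 were used; the genome build was not given in the sources used here, nor was the strand setting. The authors deposited whole-number read counts per gene and library, which all tests here used. The authors' deposited tables also hold log2 fold changes, p-values and a normalised signal, which is the count divided by 1 factor per library; the signal was not used further.

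The 10 ligands and all gene lists were chosen with earlier results of these data known. Genes were filtered by filterByExpr, scaled by TMM and fitted with edgeR 4.0.16 (quasi-likelihood test, R 4.3.3), in 1 fit per organ over its 3 groups and 1 fit of both organs for organ differences, with Benjamini-Hochberg adjustment. Standard errors were derived from each log2 fold change and its F statistic. CPM are counts per 1000000 of the scaled library size. The script recovered changes planted in simulated counts. A group with 0 counts was set at 3 counts over the group, and intervals are at 95%. The libraries are labelled as biological replicates with no animal named, so p-values measure the spread between these samples. Every pair of replicates differed beyond sampling noise (chi-square per degree of freedom at least 6.49).

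All 10 ligands and the receptors called were named, except that 1 item is not reported here; of other lists at most 4 genes with the smallest p per comparison, and 2 genes of nearest pattern per called ligand. Alternatives were RLE size factors, no count filter, DESeq2 1.42.0, limma 3.58.1 voom, the total count as a covariate, only the groups compared, a replicate block and leaving out each library; a small RNA index as a covariate in heart was chosen after seeing the data. Same-numbered libraries were not paired by the labels.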

Additional observations from a re-analysis of the deposited data

Results flagged for a closer look

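Cxcl13 in NX kidneys had 1 library far from the other 3: library 4 stood at 53.6 CPM and the next at 9.14 CPM, a gap of 0.868 of the group's range against Dixon's critical value of 0.829. Ccl19 in NX kidneys had 1 low library, library 3 at 3.28 CPM with the next at 10.6 CPM, a gap of 0.831 of the range. Of 47 groups of 4 libraries tested 2 were singled out this way, where chance gives about 1 in 20.

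The change from Sham to AVF+NX differed between heart and kidney for 5 ligands in edgeR's quasi-likelihood test of the difference itself (heart minus kidney, on the log2 scale). Ccl19 differed by -2.61 (adjusted p = 0.00236), Cxcl10 by -1.57 (0.00701), Cxcl9 by -1.99 (0.0114) and Ccl5 by -3.04 (0.0234), and Cxcl16 by 0.71 in favour of the heart (0.00867). The heart part of each difference cannot be told apart from depth and the small RNA index.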

How the results depend on the processing

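For AVF+NX vs Sham kidneys 6 to 8 ligands were called across the alternatives and 5 to 7 on leaving out 1 library. For AVF+NX vs NX kidneys 3 were called, against 5 with the total count as a covariate, 1 in a fit of the 2 groups compared and 1 to 5 on leaving out 1 library. For NX vs Sham kidneys 0 were called, against 2 by DESeq2 and 0 to 2 on leaving out 1 library. For AVF+NX vs Sham hearts 4 were called, against 0 with the total count or the small RNA index as a covariate, 2 without a count filter and 1 to 5 on leaving out 1 library. DESeq2 called 1 for AVF+NX vs NX hearts, where the main result was 0, and NX vs Sham hearts gave 0 to 1 on leaving out 1 library. The organ difference of AVF+NX vs NX gave 0 to 1 on leaving out 1 library. The causes of these moves were not tested. Over all genes, calls for NX vs Sham kidneys numbered 187, against 835 by DESeq2, 46 by limma voom and 669 with the replicate block, and for NX vs Sham hearts 0 against 344 by DESeq2.

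The labels' replicate numbers share no stated animal or batch. Same-numbered deviations correlated by 0.12 on average in kidney (7 of 12 pairs over 0.1) and by -0.0034 in heart (1 of 10), and 6 of 12 kidney and 2 of 11 heart libraries correlated best with their own number. In the fit of both organs, 3 of 11 same-numbered pairs of heart and kidney and 0 of 33 other pairs were over 0.1, and 17 of 23 libraries correlated best with their own number, a hint from the data and not from the design. With the number as a replicate block, 1 ligand (Ccl2) was called for NX vs Sham kidneys and 1 (Cxcl13) for the organ difference of AVF+NX vs NX. It also brought in Cxcl13 for Heart Sham vs Kidney Sham (-1.51, adjusted p = 0.00226) and for the organ difference of AVF+NX vs Sham (-2.92, 0.00187) and Ccl5 for AVF+NX vs Sham hearts (-1.62, 0.036), and it ended the call of Ccl5 for the organ difference of AVF+NX vs Sham (-2.50, 0.0703). The block turned the log2 fold change of Ccl2 in the organ difference of AVF+NX vs NX to -0.0015, of Cx3cl1 in it to -0.0026 and of Cxcl12 for AVF+NX vs Sham kidneys to -0.0072.

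Directions turned only in values that had not passed. With the total count as a covariate, AVF+NX vs Sham hearts gave -0.042 for Ccl19, 0.12 for Cxcl10 and 0.52 for Cxcl13, and AVF+NX vs NX hearts gave -0.062 for Cxcl12. With the small RNA index, AVF+NX vs Sham hearts gave 0.26 for Ccl5, 0.13 for Cx3cl1 and 0.88 for Cxcl13, and NX vs Sham hearts gave 0.37 for Ccl5 and 0.13 for Cx3cl1. Cx3cl1 in NX vs Sham hearts was 0.0010 with RLE size factors, 0.0031 with the total count, 0.0095 without a count filter and 0.0070 with the 2 groups alone. limma voom gave -0.038 for Cxcl10 in AVF+NX vs NX hearts, 0.018 for Cxcl13 in AVF+NX vs Sham hearts and -0.011 for Cxcl12 in AVF+NX vs Sham kidneys.

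On leaving out 1 library, log2 fold changes in AVF+NX vs Sham hearts ran from -0.0851 to 0.519 for Ccl19 and -0.774 to 0.91 for Cxcl13. In NX vs Sham hearts they ran from -0.528 to 0.0689 for Ccl19, -1.37 to 0.078 for Ccl5, -0.0631 to 0.0621 for Cx3cl1 and -0.0971 to 2.23 for Cxcl13. In AVF+NX vs NX hearts they ran from -1.44 to 0.0068 for Ccl5 and -0.108 to 0.379 for Cxcl10. In kidney the range was -0.100 to 0.171 for Cxcl12 in AVF+NX vs Sham and -0.192 to 0.0396 for Cx3cl1 in AVF+NX vs NX. For NX vs Sham kidneys it was -0.100 to 0.0865 for Cx3cl1, -0.0334 to 1.92 for Cxcl13 and -0.0146 to 0.0709 for Cxcl16. Organ differences of AVF+NX vs NX ran from -0.143 to 0.441 for Ccl2, -0.0868 to 0.124 for Cx3cl1 and -0.22 to 0.0636 for Cxcl12. Those of AVF+NX vs Sham ran from -0.0136 to 0.16 for Cx3cl1, and those of NX vs Sham from -0.0433 to 0.146 for Cx3cl1 and -1.54 to 1.06 for Cxcl13. Low counts limit Cxcl13, Ccl19, Cxcl10 and Ccl2 in heart and Cxcl6 in kidney.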
